A study of Mus musculus with 48 samples.

Results

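The change in kidney gene expression across lights-on was taken from the last pools of the night and the first pools of the day. ZT20 and ZT22 (late night, 4 pools) were compared with ZT00 and ZT02 (early day, 4 pools), where Zeitgeber time (ZT) counts hours from lights-on. These 8 of the 24 pools of the series gave 16 of its 48 libraries, 8 from RNA-seq and 8 from RPF-seq. The pools of each group were set by timepoint only. The comparison, the gene lists and the markers were chosen with earlier results of these data known. RNA-seq measures transcript abundance. RPF-seq sequences ribosome protected fragments, the stretches of mRNA that ribosomes shield from nuclease, and so measures ribosome occupancy. Their ratio within a pool is the translation efficiency (TE). All animals were male C57BL/6JRj mice of 11 to 12 weeks, entrained for 2 weeks to 12 h of light and 12 h of dark and fed ad libitum. Both groups had the same genotype and treatment, and their labels differed in timepoint alone, while library depth differed as given below. A pool joined the kidney lysates of 2 mice, so the spread between mice within a pool was not seen, and p-values rest on pools. Light, clock time and the end of nocturnal feeding coincide in this design and cannot be told apart. Because the tissue is bulk kidney, fewer cells of a type and less RNA per cell also cannot be told apart.

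The circadian clock is a feedback loop in which CLOCK and BMAL1 (gene Arntl) bind E-boxes and switch on the Per and Cry repressors and the nuclear receptor REV-ERBα (gene Nr1d1). REV-ERBα in turn represses Arntl, Npas2, Cry1 and Nfil3 through ROR elements. In nocturnal rodents the hours around lights-on are the end of activity and feeding, when repressor transcripts decline and Nr1d1 begins its daily rise, and the kidney tunes filtration and transport to this cycle.

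Of 12423 genes listed in both assays, 11863 had a median of at least 0.5 RPKM (reads per kilobase of coding sequence, scaled to library size) in both and were tested on the log2(RPKM + 0.1) scale with limma and Benjamini-Hochberg adjustment over all of them. The fit compares late night with early day, so differences between the timepoints of a group count as spread. A gene is called here at an adjusted p under 0.05, and changes are given as log2 changes, early day minus late night ± SE. Relative depth, read from the steps between low values, was 0.598 to 0.832 in the late night and 0.929 to 1.37 in the early day RNA libraries, without overlap, and 0.701 to 1.06 against 0.965 to 1.58 in RPF. The part of depth in the RNA changes was not tested. Replicate pools correlated across genes at r = 0.991 to 0.994 in both assays. Kidney markers were present. Kap, Lrp2 and the other 8 proximal tubule markers were all listed, and their summed level was 64762 to 75500 RPKM in late night RNA and 50029 to 57476 in early day RNA, without overlap, against 128660 to 141670 and 98012 to 129980 in RPF. Kap led this sum, and of the 10 markers 5 fell in RNA (Lrp2, Cubn, Slc5a12, Kap and Miox), beside 9.21% of all genes. None of the 7 adrenal markers was listed.

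Among clock genes, Nr1d1 rose and Cry1, Cry2 and Hlf fell in RNA, and Nr1d1 had the largest rise of all called genes. The promoters of Nr1d1, Cry1 and Cry2, called genes whose RefSeq window (GRCm38.p6, 250 bases before to 50 bases after the start, 5′ to 3′ on the gene's strand) held an E-box or E-prime box motif, are shown to set these letters beside the values. Capitals mark CACGTG (E-box) or CACGTT (E-prime box), searched on both strands, so that CACGTT on the other strand reads AACGTG. All 3 windows lie on the minus strand, Nr1d1 at chr11:98775328-98775627, Cry1 at chr10:85185005-85185304 and Cry2 at chr2:92434020-92434319.
Nr1d1: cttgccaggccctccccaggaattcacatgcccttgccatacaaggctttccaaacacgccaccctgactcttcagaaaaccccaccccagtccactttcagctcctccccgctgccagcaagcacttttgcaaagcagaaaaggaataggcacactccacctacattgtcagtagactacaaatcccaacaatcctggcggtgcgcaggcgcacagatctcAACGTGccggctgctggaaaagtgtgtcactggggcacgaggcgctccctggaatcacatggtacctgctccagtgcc
Cry1: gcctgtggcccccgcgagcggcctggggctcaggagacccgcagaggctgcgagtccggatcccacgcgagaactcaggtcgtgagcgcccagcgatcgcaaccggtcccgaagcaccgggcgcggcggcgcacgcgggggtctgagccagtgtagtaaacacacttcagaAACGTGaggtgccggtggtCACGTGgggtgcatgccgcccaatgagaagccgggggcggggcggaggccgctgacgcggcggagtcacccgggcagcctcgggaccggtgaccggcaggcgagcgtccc
Cry2: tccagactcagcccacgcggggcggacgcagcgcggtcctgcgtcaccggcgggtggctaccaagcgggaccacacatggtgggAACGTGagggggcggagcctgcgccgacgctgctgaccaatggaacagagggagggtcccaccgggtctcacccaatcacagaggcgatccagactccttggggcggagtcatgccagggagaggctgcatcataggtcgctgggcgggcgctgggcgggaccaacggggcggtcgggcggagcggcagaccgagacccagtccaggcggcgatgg
The window of Nr1d1 held an E-prime box at bases 223 to 228, that of Cry1 an E-prime box at bases 172 to 177 and an E-box at bases 191 to 196, and that of Cry2 an E-prime box at bases 85 to 90. CACGTG was present in 7.15% and either motif in 11.4% of all 32851 windows. Of the 16 genes listed as E-box driven, 12 had a window, 4 of these held CACGTG and 6 held either motif. A match describes letters only.

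Nr1d1 (chr11:98767932-98775377), which encodes the clock repressor REV-ERBα, measured 1.31 and 1.70 RPKM at ZT20, 4.35 and 5.74 at ZT22, 6.14 and 5.88 at ZT00, and 15.0 and 18.9 at ZT02 in RNA. Its RPF levels were 1.26 and 3.97 at ZT20, 5.66 and 7.44 at ZT22, 5.34 and 7.57 at ZT00, and 22.2 and 23.2 at ZT02. The 2 ZT02 pools were far above all others in both assays, the RNA groups did not overlap, and in RPF the lower ZT00 pool lay below both ZT22 pools. The log2 change was 1.83 ± 0.48 in RNA (adjusted p = 0.0241) and 1.62 ± 0.56 in RPF (adjusted p = 0.422). The RNA call was lost when ZT20 replicate 1, ZT20 replicate 2, ZT02 replicate 1 or ZT02 replicate 2 was left out, with adjusted p between 0.066 and 0.072, and between the nearest timepoints ZT22 and ZT00 its RNA change was 0.26. In a fit where all 24 libraries of an assay share 1 estimate of spread, which called 12.8% of all genes in RNA, Nr1d1 rose in RNA (adjusted p = 8.53e-05) and in RPF (adjusted p = 0.00964). Nr1d2, its paralog, had log2 changes of 0.30 ± 0.11 in RNA and 0.35 ± 0.12 in RPF, and neither passed in the main fit. The RNA change of Nr1d2 passed without ZT00 replicate 1 (adjusted p = 0.0335) and with 4 timepoint means (adjusted p = 0.0325).

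Cry1, a core repressor, measured 16.8 and 15.4 RPKM at ZT20, 12.6 and 11.8 at ZT22, 10.6 and 8.55 at ZT00, and 7.49 and 5.42 at ZT02 in RNA. Its RPF levels were 15.4 and 13.1 at ZT20, 10.6 and 9.79 at ZT22, 7.59 and 6.32 at ZT00, and 6.21 and 3.49 at ZT02, and no early day pool reached a late night pool in either assay (22.3% of all genes had groups that did not overlap, in either direction, in RNA and 5.29% in RPF). Its log2 change was -0.84 ± 0.18 in RNA (adjusted p = 0.0096) and -1.07 ± 0.22 in RPF (adjusted p = 0.237, and 0.0509 over 24 libraries). Cry2 measured 8.73 and 7.88 RPKM at ZT20, 7.43 and 7.61 at ZT22, 5.11 and 4.78 at ZT00, and 6.42 and 4.85 at ZT02 in RNA and 11.4 and 11.2 at ZT20, 7.58 and 7.87 at ZT22, 5.07 and 5.52 at ZT00, and 6.60 and 5.33 at ZT02 in RPF. Again no early day pool reached a late night pool, and the change was -0.58 ± 0.11 in RNA (adjusted p = 0.0046) and -0.73 ± 0.15 in RPF (adjusted p = 0.264, and 0.00098 over 24 libraries).

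Per2, a repressor with its highest values of the 8 pools at ZT20, had 10.7 and 11.0 RPKM at ZT20, 5.97 and 4.31 at ZT22, 5.38 and 4.89 at ZT00, and 3.80 and 1.90 at ZT02 in RNA. Both ZT20 pools were above the rest of the 8, while the ZT22 and ZT00 pools overlapped. The log2 change of -0.98 ± 0.35 in RNA and -1.11 ± 0.36 in RPF did not pass in the main fit of the 8 pools (adjusted p = 0.0737 and 0.401). With 4 timepoint means over the same 8 pools, the change of Per2 passed in RNA (adjusted p = 0.00895) and not in RPF (adjusted p = 0.175). Per2 RNA passed without ZT22 replicate 2 (adjusted p = 0.0258), and in the fit over 24 libraries it fell in both assays (adjusted p = 0.00169 and 0.0451). Per1 RNA overlapped between the groups (2.78 to 4.37 against 2.93 to 3.50 RPKM), whereas Per1 footprints were 2.52 to 3.84 in the late night and 1.74 to 2.42 in the early day without overlap (log2 change -0.53 ± 0.16, unadjusted p = 0.0065, adjusted p = 0.401).

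Arntl, which encodes the activator BMAL1, had 19.2 to 23.9 RPKM in late night and 19.4 to 23.6 in early day RNA and a log2 change of -0.03 ± 0.08. Clock (-0.15 ± 0.08), Npas2 (0.45 ± 0.18), Per3 (-0.31 ± 0.14), Dbp (-0.41 ± 0.20), Tef (-0.19 ± 0.08) and Nfil3 (0.22 ± 0.18) did not pass in RNA, and Hlf, a PAR bZIP factor, fell by 0.37 on the log2 scale (adjusted p = 0.0217) although its groups overlapped, and the call was lost without ZT20 replicate 1, ZT20 replicate 2, ZT22 replicate 1 or ZT02 replicate 1 (adjusted p = 0.0565 to 0.0609). Without ZT22 replicate 2, Npas2 (0.61, adjusted p = 0.019) and Clock (-0.22, adjusted p = 0.0466) passed. With 4 timepoint means over the 8 pools, Npas2 passed in RNA (adjusted p = 0.00722). Clock, Per3, Dbp, Tef and Nfil3 did not (adjusted p = 0.0642 to 0.204). Npas2 was lowest at ZT20 (5.42 and 6.30 RPKM) and had 9.40 to 11.3 RPKM in the early day.

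**Figure D1:**
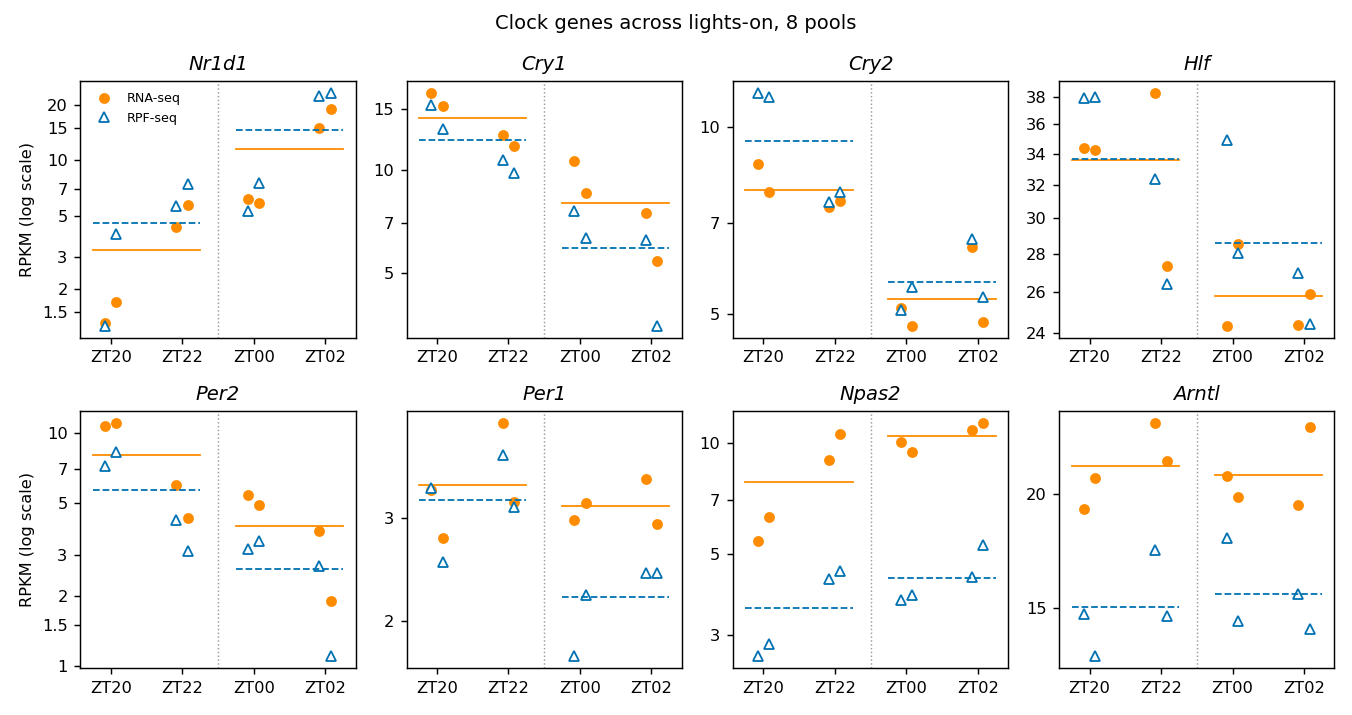
RPKM (log10 axis) of 8 clock genes in the 8 pools, in order of timepoint, with RNA as filled circles, RPF as open triangles and lines at the mean of the 4 pools of a group. Cry1 and Cry2 lie lower in every early day pool in both assays, the Nr1d1 points at ZT02 lie above all others, and Arntl stays between 19.2 and 23.9 RPKM in RNA.

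Across all genes the RNA changed widely. Of the 11863 genes tested, 2114 were called in RNA (17.8%), 1022 that rose (8.62%) and 1092 that fell (9.21%), and the median log2 change over all genes was -0.01. Most calls were small: 232 were at least 1.5-fold, 162 of them rises and 70 falls, and 35 were at least 2-fold. The number of calls depended on single libraries, with 1323 without ZT20 replicate 1, 1329 without ZT00 replicate 2 and 1395 without ZT02 replicate 1. Between ZT22 and ZT00 alone, 250 genes were called. The RNA change correlated across genes with transcript GC content (Spearman 0.204) and length (0.217), and 1752 genes were called after those trends were removed.

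Among called genes whose groups did not overlap and whose mean was at least 1 RPKM, the largest RNA rises beside Nr1d1 were those of Ahsg, Mup20, Cdkn1a, Mup3, Anp32b and Serpina3k, all above 1.4 on the log2 scale. Cdkn1a (chr17:29090979-29100722), which encodes the cell cycle inhibitor p21, had 2.23 and 1.70 RPKM at ZT20, 2.14 and 2.38 at ZT22, 6.45 and 6.29 at ZT00, and 6.60 and 6.43 at ZT02 in RNA. All 4 early day pools were close to each other and above every late night pool, with a log2 change of 1.57 ± 0.12 (adjusted p = 3.35e-05). Its RPF levels were 11.5 and 18.7 at ZT20, 16.1 and 12.3 at ZT22, 16.2 and 16.5 at ZT00, and 22.1 and 20.7 at ZT02, so the groups overlapped and the change was 0.38 ± 0.16 (adjusted p = 0.523).

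Anp32b (chr4:46450926-46472657), a nuclear histone chaperone, measured 10.7 and 10.2 RPKM at ZT20, 8.22 and 12.2 at ZT22, 22.6 and 30.9 at ZT00, and 29.7 and 30.4 at ZT02 in RNA. The early day pools were above every late night pool, and ZT00 replicate 1 was the lowest of the 4. The RNA rise was 1.45 ± 0.13 (adjusted p = 6.62e-05), and in RPF the groups also did not overlap (44.4 to 50.6 against 51.2 to 63.3 RPKM) with a change of 0.24 ± 0.08 (adjusted p = 0.439).

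Setd1b, a histone H3K4 methyltransferase, rose by 1.31 ± 0.14 in RNA (adjusted p = 0.000226), with 2.08 to 3.38 RPKM in the late night and 5.89 to 7.07 in the early day. Card10, a scaffold of NF-kB signalling, rose by 1.23 ± 0.12 (adjusted p = 0.00012), with 7.05 to 11.1 RPKM in the late night and 19.4 to 20.7 in the early day. Tfap2a, a transcription factor, rose by 1.18 ± 0.16 (adjusted p = 0.000758), with 0.91 to 1.09 RPKM in the late night and 2.06 to 2.72 in the early day. In none of these 3 genes did RPF pass the test, and RPF changes were 0.14, 0.04 and -0.29. Glipr2, a Golgi-associated protein gene, rose by 1.20 ± 0.20 in RNA (adjusted p = 0.00234) with an RPF change of 0.44.

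Ahsg (fetuin-A), Mup20, Mup3 and Serpina3k encode proteins that the liver secretes. Ahsg was 0.749 and 0.588 RPKM at ZT20, 0.704 and 0.548 at ZT22, 1.83 and 3.03 at ZT00, and 2.91 and 1.58 at ZT02 in RNA and 2.69 and 4.16 at ZT20, 4.63 and 4.35 at ZT22, 3.09 and 1.40 at ZT00, and 7.51 and 1.68 at ZT02 in RPF. The RNA groups did not overlap (log2 change 1.66 ± 0.23, adjusted p = 0.00106), and RPF lay both above and below its late night range in the early day (log2 change -0.49 ± 0.42, adjusted p = 0.767). RNA of Mup20 (1.64 ± 0.36, adjusted p = 0.0104), Mup3 (1.49 ± 0.31, adjusted p = 0.00815) and Serpina3k (1.42 ± 0.25, adjusted p = 0.00373) also rose, each without overlap, and all 3 calls were lost in the fit over 24 libraries (adjusted p = 0.1, 0.227 and 0.18). Mup and Serpina3 genes have near-identical copies among which reads can be split, so these values are uncertain. The 5 liver markers, all listed, summed to 139 to 475 RPKM in late night and 282 to 413 in early day RNA, and to 226 to 582 and 385 to 590 in RPF, with Ttr leading. Their part in these results was not tested.

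Under the same limits on overlap and mean RPKM, the largest RNA falls were those of Mymx, Ltc4s, Pemt and mt-Nd3. Ltc4s, leukotriene C4 synthase, had 7.90 and 9.37 RPKM at ZT20, 8.05 and 8.91 at ZT22, 4.27 and 3.01 at ZT00, and 3.86 and 2.25 at ZT02 in RNA. Late night values were all above early day values, with a log2 change of -1.37 ± 0.17 (adjusted p = 0.000534). Footprints of Ltc4s had a change of -0.48 ± 0.13 (adjusted p = 0.363), and the ranges met at ZT22 and ZT02.

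Kynu (chr2:43555258-43683048), kynureninase of tryptophan breakdown, stood at 6.90 and 4.98 RPKM at ZT20, 6.70 and 8.62 at ZT22, 3.21 and 3.58 at ZT00, and 3.03 and 3.02 at ZT02 in RNA and at 7.39 and 7.64 at ZT20, 7.92 and 11.3 at ZT22, 5.49 and 5.22 at ZT00, and 4.64 and 4.54 at ZT02 in RPF. Both assays were lower in every early day pool, with changes of -1.04 ± 0.15 in RNA (adjusted p = 0.0012) and -0.75 ± 0.14 in RPF (adjusted p = 0.174), and the RNA call was lost in the fit over 24 libraries (adjusted p = 0.0588). Pemt, which makes phosphatidylcholine, had a fall in RNA of -1.17 ± 0.26 (adjusted p = 0.0109), from 11.2 and 10.2 RPKM at ZT20 and 5.87 and 4.67 at ZT22 to 2.48 to 4.15 in the early day.

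Mymx, a myoblast fusion micropeptide (-1.47 ± 0.38, adjusted p = 0.0231), fell in RNA, and its call was lost without ZT20 replicate 1, ZT22 replicate 1, ZT00 replicate 2 or ZT02 replicate 2 (adjusted p = 0.0573 to 0.0716). Tmem207, a membrane protein gene (-1.04 ± 0.17, adjusted p = 0.00232), and Aspn, asporin of the extracellular matrix (-0.97 ± 0.20, adjusted p = 0.00775), also fell. 1700067K01Rik changed by -1.08 ± 0.22 (adjusted p = 0.00797), with 1.17 to 1.60 RPKM in the late night and 0.487 to 0.914 in the early day.

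Of the 12 genes encoded in the mitochondrial genome that were tested, 10 fell in RNA and none rose (falls 9.21% and rises 8.62% of all genes), with a median log2 change of -0.61 in RNA and -0.47 in RPF, beside -0.01 and 0.00 over all genes. mt-Nd3, a complex I subunit, was 14517 and 16996 RPKM at ZT20, 13672 and 12987 at ZT22, 6881 and 6931 at ZT00, and 6760.4 and 6079 at ZT02 in RNA. No early day pool reached a late night pool and the log2 change was -1.12 ± 0.09 (adjusted p = 3.35e-05). In RPF the groups met, with 1323 to 1980.4 against 857 to 1504 RPKM and a change of -0.64 ± 0.18 (adjusted p = 0.356). mt-Atp8 (-1.05) and mt-Atp6 (-0.98) of ATP synthase, and mt-Nd2 of complex I (-0.92), had the next largest falls. Under quantile normalisation, which fixes the values of the top ranks that these transcripts fill, 3 of the 12 fell and 2 rose (mt-Co1 and mt-Cytb turned to 0.36 and 0.33) with a median of -0.08 in RNA, and with GC and length trends removed 8 fell and 1 rose, mt-Nd6 at 0.84.

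**Figure D2:**
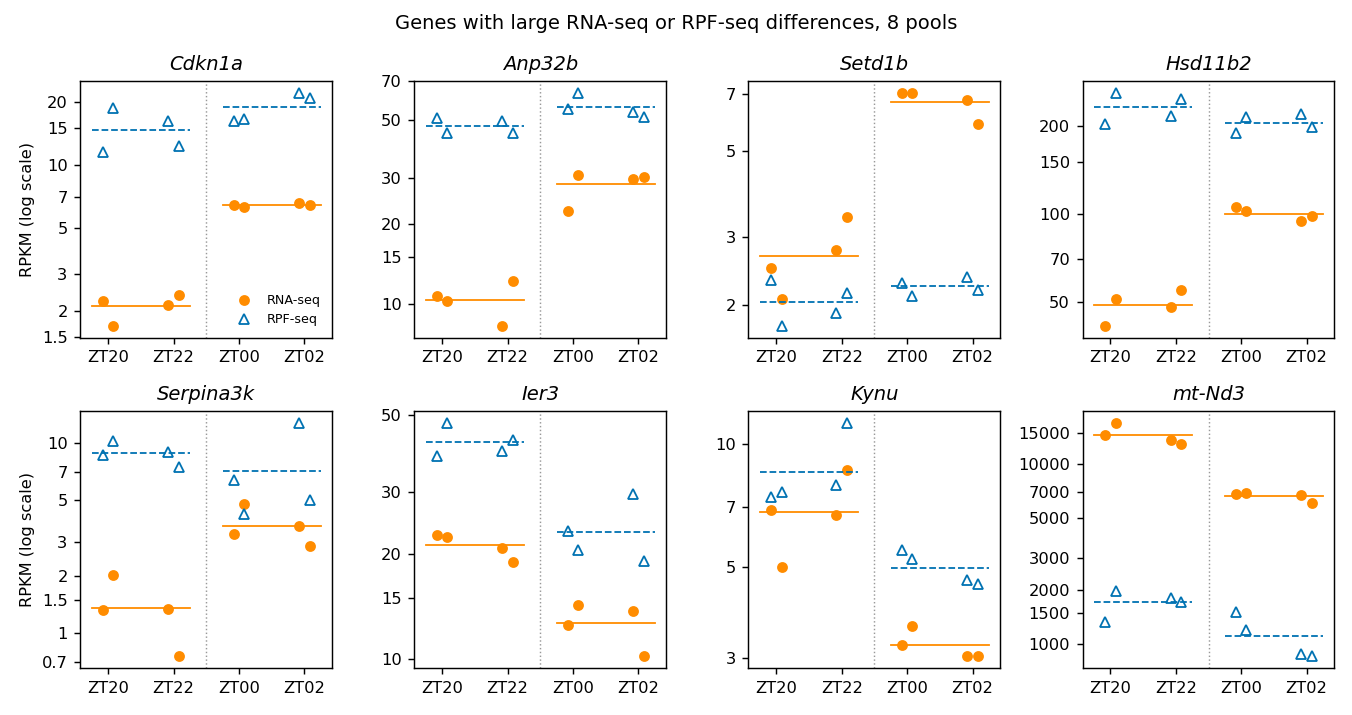
RPKM (log10 axis) of Cdkn1a, Anp32b, Setd1b, Hsd11b2, Serpina3k, Ier3, Kynu and mt-Nd3 in the 8 pools by timepoint, with RNA as filled circles, RPF as open triangles and lines at group means. RNA of Cdkn1a lies between 6.29 and 6.60 RPKM in the early day, above the late night maximum of 2.38, while Ier3 and Kynu lie lower in every early day pool in both assays.

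The genes called in RNA were followed through all pools. The late night mean, taken as 0, and the 4 early day pools chose these genes, so that the early day medians of 0.33 to 0.38 on the log2 scale for the 1022 risers and -0.30 to -0.28 for the 1092 fallers are a description. Levels in the other pools are also differences from that late night mean, which favours values above 0 in risers and below 0 in fallers. In the pools the calls did not use, the median RNA level of the risers was 0.30 to 0.36 in the 7 pools from ZT04 to ZT10 replicate 1, 0.20 in ZT10 replicate 2, 0.12 to 0.18 from ZT12 to ZT16 and -0.01 to 0.04 at ZT18. The fallers had -0.32 to -0.26 in the same 7 pools, -0.15 in ZT10 replicate 2, -0.19 to -0.12 from ZT12 to ZT16 and -0.02 to -0.01 at ZT18. Past the midpoint of their late night and early day means, 76.8% of risers, 71.5% of fallers and 61.9% of all genes lay at ZT10 replicate 1. At ZT10 replicate 2 the shares were 54.0%, 50.3% and 51.8%, so the called genes were near the share of all genes there. In the 2 pools of ZT18 they were 14.1% and 17.1% of risers, 19.1% and 25.4% of fallers and 36.1% and 37.9% of all genes. The medians of the ZT10 replicates lay further apart than those of the ZT08 or ZT12 replicates, and the labels name no batch. Footprint medians of these gene sets stayed within -0.11 and 0.08 in all 24 pools.

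**Figure D3:**
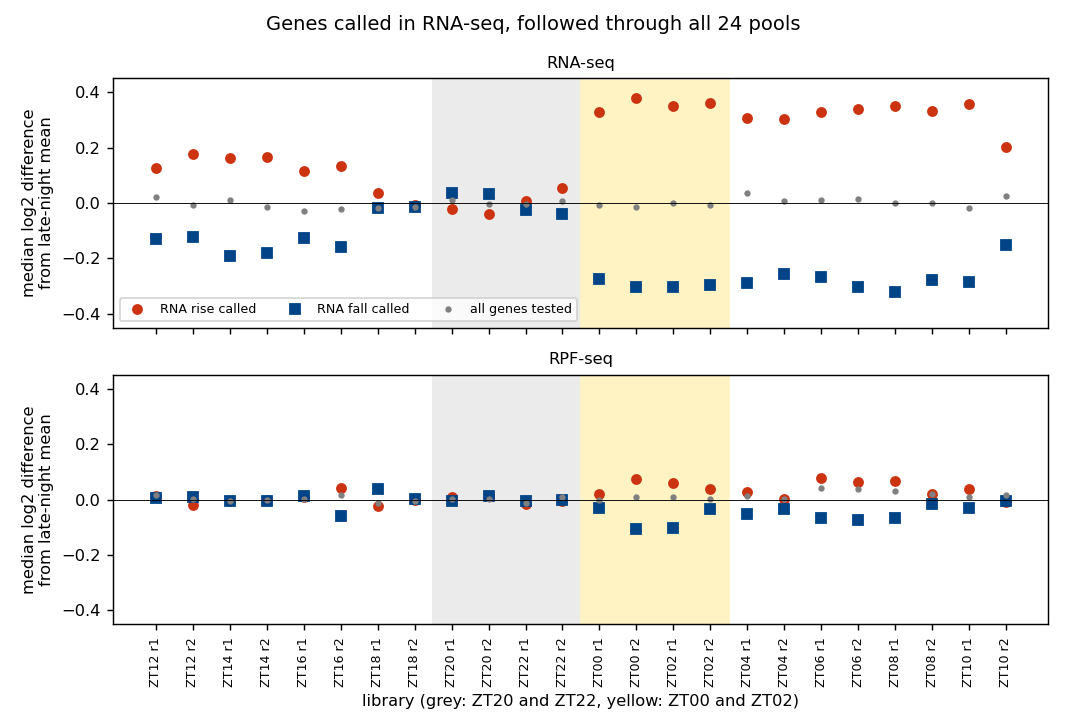
Median log2 level of the RNA risers (1022), RNA fallers (1092) and all 11863 genes in each of the 24 pools from ZT12 round to ZT10, relative to the late night mean, for RNA and RPF. In RNA the risers, chosen by the shaded pools, stay at 0.30 to 0.36 from ZT04 to ZT10 replicate 1 and return near 0 at ZT18, and in RPF both sets stay within -0.11 and 0.08.

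In RPF no gene passed the test in limma over the 8 pools (0%), with a smallest adjusted p of 0.146, 1067 genes at an unadjusted p under 0.05 (500 higher, 4.21%, and 567 lower, 4.78%) and 628 genes whose groups did not overlap (5.29%). With all 24 libraries in the fit, 6 genes were called (0.0506%). Nr1d1 rose (rises 0.00843% of all genes), and 5 fell, among them Aqp1, Cry2, Per2 and Sft2d1 (falls 0.0421%). Of the 6, 5 (83.3%), all but Sft2d1, were also called in RNA by the same fit, beside 12.8% of all genes. 3 genes were called without RPF ZT00 replicate 1 and 1 without RPF ZT02 replicate 1. The median SE of the log2 changes was 0.107 in RPF and 0.085 in RNA.

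Aqp1 (chr6:55336299-55348555), the water channel of the proximal tubule and thin limb, had 1175 and 1221 RPKM at ZT20, 1129 and 1166 at ZT22, 838 and 803 at ZT00, and 941 and 946 at ZT02 in RPF. Early day values were all below late night values, as in RNA (453 to 471 against 324 to 390.0 RPKM). Log2 changes were -0.41 ± 0.07 in RPF (adjusted p = 0.162, and 0.0349 over 24 libraries) and -0.37 ± 0.06 in RNA (adjusted p = 0.00173). Sft2d1, a vesicle transport protein gene, had 9.02 to 19.8 RPKM in late night RPF and 4.89 to 6.22 in early day RPF, a change of -1.16 ± 0.19 (adjusted p = 0.0349 over 24 libraries), while its RNA had -0.22 ± 0.18 (adjusted p = 0.434).

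The 12 genes with the smallest RPF p were listed after their values were seen. Of these 9 were lower and 3 higher in the early day, all 12 had the same sign in RNA, and 8 were called there (17.8% of all genes). Ier3 (chr17:35821713-35822911), an immediate early gene, had 38.0 and 47.4 RPKM at ZT20, 39.4 and 42.3 at ZT22, 23.2 and 20.5 at ZT00, and 29.7 and 19.0 at ZT02 in RPF. Its late night values were all above its early day values, with changes of -0.87 ± 0.13 in RPF (adjusted p = 0.146) and -0.74 ± 0.11 in RNA (adjusted p = 0.00114). The RNA call of Ier3 was lost in the fit over 24 libraries (adjusted p = 0.0514, and 0.278 in RPF). Ces2b, a carboxylesterase, rose by 0.62 ± 0.13 in RNA (adjusted p = 0.0074) and had a change of 0.69 ± 0.11 in RPF. Slc22a8, the organic anion transporter OAT3, had 598 to 678 against 456 to 549 RPKM in RPF (-0.44 ± 0.08). Its RNA fell by 0.29 on the log2 scale (adjusted p = 0.0141), a call lost over 24 libraries (adjusted p = 0.0813). Ly6c1 had lower early day values in both assays (-0.52 in RPF, -0.65 in RNA, the latter called). Aacs, acetoacetyl-CoA synthetase, was -0.57 ± 0.10 in RPF and -0.10 ± 0.09 in RNA, Prkar2b, a regulatory subunit of protein kinase A, 0.76 ± 0.12 and 0.31 ± 0.17, and Isg20, an exonuclease, 1.40 ± 0.26 and 0.77 ± 0.28, and none of these 3 passed in RNA. Aacs was called in TE (-0.47, adjusted p = 0.0263, and 0.00475 over 24 libraries). So was Sft2d1 (-0.95, adjusted p = 0.0436, and 0.0803 over 24 libraries), while Prkar2b and Isg20 were not (adjusted p = 0.16 and 0.195). The gene listed only as ENSMUSG00000091166 had -0.57 in RPF and -0.50 in RNA, the latter called in the main fit and not over 24 libraries (adjusted p = 0.0955).

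Changes spread more widely in RNA than in RPF, with an SD over all genes of 0.24 and 0.18 on the log2 scale. Across the 11863 genes the log2 changes of the assays correlated at r = 0.279 (Spearman rho = 0.251), a description over genes that share pools. Of the RNA risers, 681 of 1022 (66.6%) were above 0 in RPF, and of the RNA fallers 755 of 1092 (69.1%) were below 0, beside 51.1% of all genes above 0. Risers had median log2 changes of 0.36 in RNA and 0.05 in RPF, and fallers -0.30 and -0.07, sets chosen by their RNA change, which favours larger values in RNA. 130 RNA calls (6.15%) also had RPF groups that did not overlap in the same direction with an unadjusted p under 0.05, 49 of the risers (4.79%) and 81 of the fallers (7.42%), beside 1.97% of all genes higher and 2.01% lower in RPF by the same rule.

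**Figure D4:**
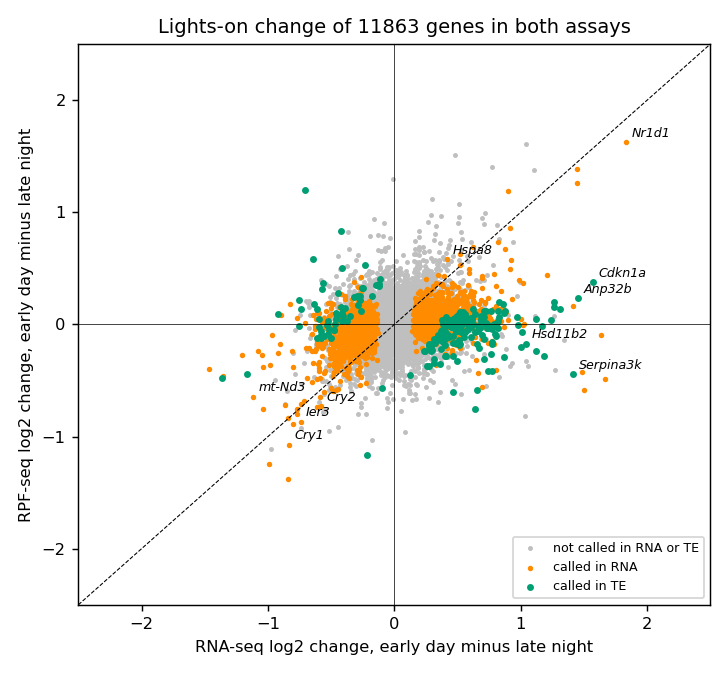
Log2 change at lights-on (early day minus late night) in RPF, y axis, against RNA, x axis, for the 11863 tested genes, with genes called in RNA in orange, genes called in TE in green, others grey and the diagonal dashed. Nr1d1, Cry1 and Cry2 lie off the origin on both axes, whereas the medians of the risers are 0.36 in RNA and 0.05 in RPF.

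Translation efficiency passed the test in 222 genes (1.87%), 54 up (0.455%) and 168 down (1.42%), and the calls depended on the library set. Without ZT00 replicate 2 no gene was called, without ZT02 replicate 1 there were 16, without ZT20 replicate 1 there were 32, without ZT02 replicate 2 there were 37, and the counts were 62 without ZT22 replicate 1, 78 without ZT20 replicate 2 and 106 without ZT22 replicate 2. Of the 168 falls in TE, 146 were RNA risers, and of the 54 rises 41 were RNA fallers. RNA moved more than RPF in 202 of the 222. The share of all genes in which RNA moved more was not computed, and over all genes the median absolute log2 change was 0.13 in RNA and 0.09 in RPF. Of the 222, 43 had an RPF unadjusted p under 0.05, beside 1067 of all 11863 genes. TE fallers had median log2 changes of 0.55 in RNA and -0.03 in RPF, TE risers -0.47 in RNA and 0.11 in RPF. Because TE contains RNA, these counts are not independent of the RNA calls.

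Hsd11b2 (chr8:105518746-105523988), which inactivates glucocorticoids in the collecting duct, had 41.3 and 51.3 RPKM at ZT20, 48.0 and 55.0 at ZT22, 105 and 103 at ZT00, and 94.5 and 98.3 at ZT02 in RNA. The early day was higher in every pool, and RNA rose by 1.04 ± 0.08 (adjusted p = 3.35e-05). RPF was 204 and 259.8 at ZT20, 217 and 247 at ZT22, 189 and 214 at ZT00, and 219 and 198 at ZT02, which overlapped, with a change of -0.17 ± 0.09 (adjusted p = 0.591). The TE was 4.48 to 5.05 in the late night and 1.80 to 2.31 in the early day (-1.21 ± 0.10, adjusted p = 0.00725).

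Pcgf2 of Polycomb (1.12 in RNA, -0.24 in RPF), the sialyltransferase St3gal2 (1.00 and -0.20), Serpina3k (1.42 and -0.44), Tfap2a (1.18 and -0.29) and Anp32b (1.45 and 0.24) made up, with Hsd11b2, the 6 largest falls in TE among called genes without overlap and with a mean of at least 1 RPKM in both assays. Their TE changes were -1.36, -1.20, -1.86, -1.47 and -1.22. The rises in TE were, within these limits, largest in the collectin Colec11 (1.01), the complex I assembly factor Ndufaf8 (0.97), Mcrip2 (0.93), Tma7 (0.92), Ltc4s (0.89) and the splicing factor Pqbp1 (0.89). Pqbp1 had 26.7 to 29.6 RPKM in late night RNA and 17.1 to 20.0 in the early day, a fall of -0.57 ± 0.06 (adjusted p = 0.000282), with 29.2 to 39.3 and 36.7 to 45.4 RPKM in RPF. Tma7, named for translation machinery association, was the only one of the 6 whose RPF groups did not overlap, at 73.3 to 88.7 and 91.7 to 132 RPKM, and its RNA call was lost in the fit over 24 libraries and without ZT20 replicate 1 or ZT20 replicate 2 (adjusted p = 0.0598 and 0.0595). The TE calls of Serpina3k and Ndufaf8 were lost whichever of the 8 pools was left out, that of Tma7 without any but ZT22 replicate 2, that of Ltc4s without any but ZT00 replicate 1, and that of St3gal2 without any but ZT20 replicate 2 or ZT00 replicate 1. Those of Anp32b and Mcrip2 were lost without ZT20 replicate 1, ZT00 replicate 2, ZT02 replicate 1 or ZT02 replicate 2, that of Colec11 without ZT00 replicate 2 or ZT02 replicate 1, and those of Hsd11b2, Pcgf2, Tfap2a and Pqbp1 without ZT00 replicate 2 alone (adjusted p = 0.0508 to 0.119 over these losses).

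Counts of list members called in RNA stand beside 8.62% of all genes that rose and 9.21% that fell. The clock list of 16 E-box genes had 1 RNA rise (Nr1d1) and 5 falls (among them Cry2, Wee1, Nampt and Hlf), with a median log2 change of -0.39 in RNA and -0.35 in RPF, beside -0.01 and 0.00 over all genes. In RPF, 5 of the 16 had lower early day values without overlap (2.6% of all genes) and 0 had higher values without overlap (2.7%), and none was called in limma over the 8 pools. Of 7 ROR element genes, 2 fell in RNA (among them Cry1) and 3 had lower early day footprints without overlap. Of 10 D-box associated genes, 2 fell (9.21% of all genes), Gsta3 at -0.36 and Slc22a8 at -0.29.

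Corticosteroid responsive genes moved both ways. Of 14 tested, Cdkn1a, Hsd11b2 and Fkbp5 (0.56) rose in RNA, and Tsc22d3 (-0.72), Sgk1 (-0.45) and Errfi1 (-0.58) fell. Footprint changes were -0.07 for Fkbp5, which restrains the glucocorticoid receptor, -0.68 for Tsc22d3, the leucine zipper GILZ, and -0.16 for Sgk1, the kinase of sodium channel control. In the heat shock and cold inducible list of 18, Hspa1b (0.90), Hspa8 (0.42), Hsph1 (0.55) and Hspd1 (0.31) rose and the cold inducible Rbm3 fell (-0.61). Their RPF changes were 1.19, 0.58, 0.30, 0.10 and -0.49 in that order.

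In transport, 3 of 31 sodium, potassium, chloride and water genes rose in RNA (Kcnj10 at 0.65, the sodium pump subunit Atp1b1 at 0.58 and the kinase Wnk4 at 0.30) and 3 fell (Aqp1, Aqp4 at -0.46 and the vasopressin receptor Avpr2 at -0.26), counts near the 8.62% and 9.21% of all genes. Footprint changes of the 3 risers were -0.17, 0.03 and -0.09. In RPF, 5 of the 31 had lower early day values without overlap (2.6% of all genes) and 0 had higher values without overlap (2.7%). The RPF change was above 0 in 5 of the 31 and below 0 in 26, beside 51.1% of all genes above 0, and none was called. Of 24 organic ion and amino acid transport genes, Slc22a7 rose (0.33) and Slc22a8, Slco4c1, Slc7a7 and Slc3a1 fell (-0.43 to -0.26). Footprints of 6 of these 24 were lower in the early day without overlap and of 0 higher, with 6 changes above 0 and 18 below, and none was called. Among 22 cholesterol synthesis genes none rose in RNA (2 did under quantile normalisation and 1 with the GC and length trends removed) and 4 fell, among them Insig1 (-0.55), Hsd17b7 (-0.55) and Ebp (-0.28), with RPF changes of -0.42, -0.17 and -0.15.

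Ribosomal protein genes fell in 38 of 79 and rose in none, with a median of -0.16 in RNA and -0.08 in RPF and the largest falls in Rpl6 (-0.75) and Rps13 (-0.56). Under quantile normalisation 21 fell and 3 rose, and with GC and length trends removed 11 fell and 8 rose. The 76 nuclear genes of respiratory complexes had 17 falls and 5 rises (quantile normalisation 11 and 10, trends removed 4 and 11), so the balance of rises and falls in both lists depended on the scaling. Translation factors were split, 7 up and 8 down of 38, with Eif1 (0.87) and Pabpc1 (0.71) highest. The proteasome list of 36 had 2 rises and 6 falls (4 and 1 with trends removed).

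Other lists had few calls, beside the 8.62% of all genes that rose and 9.21% that fell in RNA, and are given as a description. Of 18 endoplasmic reticulum genes the chaperone Pdia3 and Dnajb9 rose in RNA and none fell, with a median of -0.12 in RNA. Of 18 immediate early genes Jun rose and Ier3 and Dusp6 fell, with medians of -0.15 in both assays. In the fasting list of 19, Acadl of fatty acid oxidation rose and the carnitine carrier Slc25a20 fell. Foxo1 and Sesn3 rose among 15 insulin and FOXO genes. Of 14 amino acid response genes, Ddit4, an inhibitor of mTORC1, rose (0.87 in RNA, 0.12 in RPF) and Psph fell. Of 19 NRF2 targets Gclm, Pgd and Me1 rose and Taldo1 and Nfe2l2 fell. Actg1, Vcl and Flna rose among 15 actin genes, and of 19 cell cycle genes Cdkn1a and Ccnd2 rose and Wee1 fell.

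**Figure D5:**
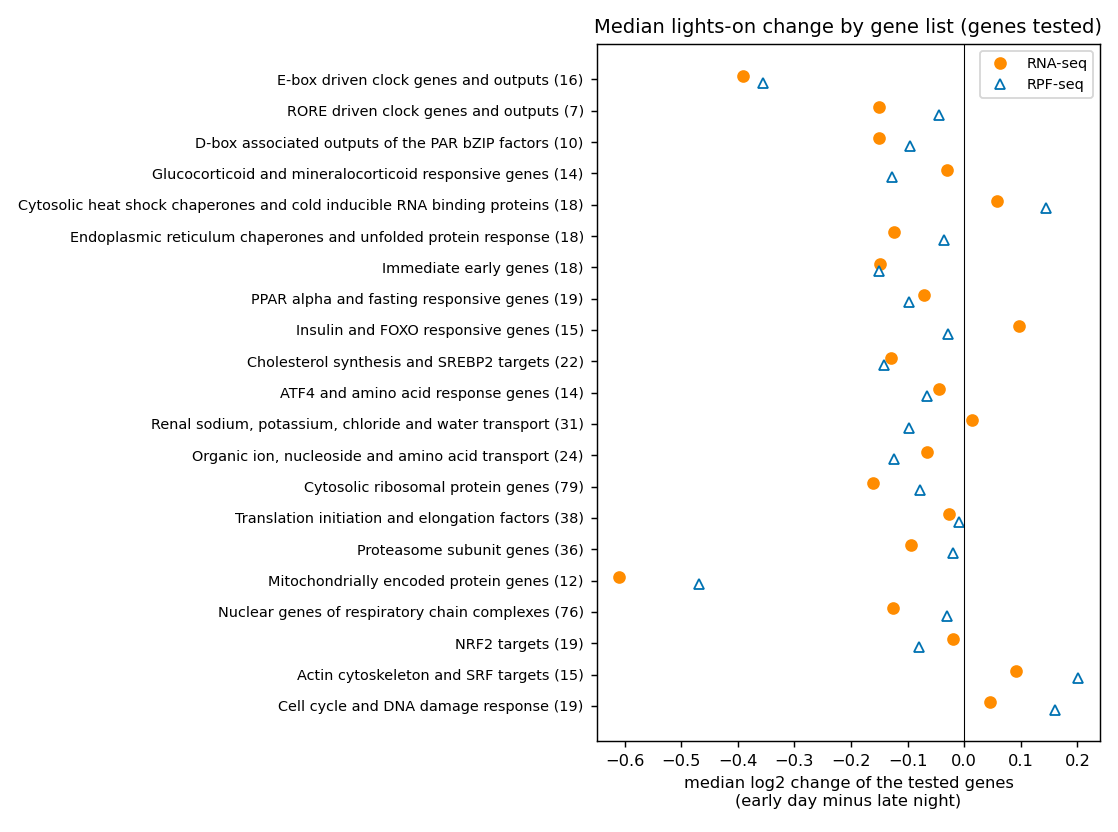
Median log2 change at lights-on of the members of 21 gene lists, RNA as filled circles and RPF as open triangles, with a line at 0 and the number of tested genes in brackets. The mitochondrially encoded list is farthest down at -0.61 in RNA and -0.47 in RPF, followed by the E-box list at -0.39 and -0.35.

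The change at lights-off, ZT08 and ZT10 (late day, 4 pools) to ZT12 and ZT14 (early night, 4 pools), was fitted with no library shared. It had 4 RNA calls (0.0337%) and 12 RPF calls (0.101%). The late day group holds ZT10 replicate 2, which lay apart from replicate 1 in RNA, and without it there were 112 RNA calls and 7 RPF calls. The difference between the lights-on and the lights-off change was called in 1610 genes in RNA (13.6%), 864 higher at lights-on (7.28%) and 746 lower (6.29%), and in 101 genes in RPF (0.851%), 46 higher (0.388%) and 55 lower (0.464%). Without ZT10 replicate 2 the counts were 2486 in RNA, 1191 higher and 1295 lower, and 89 in RPF. Cdkn1a had changes of 1.57 at lights-on and -1.04 at lights-off in RNA (difference 2.62 ± 0.30, adjusted p = 4.8e-05). Cry1 had changes of -1.07 and 1.51 in RPF (difference -2.59 ± 0.45, adjusted p = 0.0141) and Per2 of -1.11 and 0.96 (difference -2.08 ± 0.47, adjusted p = 0.0442). None of these lights-off changes passed by itself in limma (adjusted p = 0.203 for Cdkn1a, 0.127 for Cry1 and 0.109 for Per2). The RPF lights-on changes of Cry1 and Per2 did not pass either (adjusted p = 0.237 and 0.401).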

How the data were processed

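Kidney RNA-seq and RPF-seq libraries of 8 pools, with 8 further pools for lights-off, were used as deposited. Per the labels and the study's methods, the authors trimmed reads (cutadapt), mapped them (Bowtie2 2.2.1, TopHat2 2.0.11, Cufflinks 2.2.1, build GRCm38.p2), and deposited upper-quantile normalised RPKM per coding sequence, with low genes already left out. Such values cannot show a change in total RNA per cell. They are not counts, so limma 3.58.1 (R 4.3.3, lmFit, eBayes with trend) was fitted to log2(RPKM + 0.1), which understates changes of low genes, with Benjamini-Hochberg adjustment over 11863 genes, for RNA, RPF and TE (log2 RPF minus log2 RNA of a pool). Median RPKM was at least 0.5 in both assays. Named genes were the 12 largest changes each way in RNA (6 in TE) that were called, did not overlap and had a mean RPKM of at least 1, with the clock genes always named, and some genes that met these rules are not reported here. The comparison, the gene lists and the markers were chosen with earlier results of these data known, and its pools by timepoint. The lights-on fit of each assay and of TE was tested on simulated data. Of 100 genes changed 1.5-fold there, 78% were recovered in RNA, 64% in RPF and 52% in TE, and of 100 changed 2-fold 92%, 91% and 82%. The fit was thus less sensitive to 1.5-fold changes in RPF and TE than in RNA in those data. Sequences and positions came from RefSeq and the annotation of GRCm38.p6. Alternatives were pseudocounts of 0.01 and of 1, a median RPKM of at least 2 or no filter, quantile normalisation, 12 timepoint means over 24 libraries, ZT22 against ZT00 only, a 1.5-fold minimum, a replicate block and leaving out each library. Removal of GC and length trends, 4 timepoint means and leaving ZT10 replicate 2 out of the lights-off change were added after seeing the data. Python 3.11.15 with pandas 2.3.3 and scipy 1.17.1 was used for the rest.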

Additional observations from a re-analysis of the deposited data

Results flagged for a closer look

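The 43 named genes reported here were examined for a sample far from the others of its group by Dixon's criterion, in 172 groups of 4 pools, of which chance flags about 1 in 20, and 5 were found. These were Mup3 RPF at ZT22 replicate 1 (10.7 RPKM), Anp32b RNA at ZT00 replicate 1 (22.6 RPKM), Kynu RPF at ZT22 replicate 2 (11.3 RPKM), Colec11 RPF at ZT22 replicate 2 (2.13 RPKM) and Pqbp1 RPF at ZT00 replicate 1 (36.7 RPKM).

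The lights-on log2 change minus the lights-off log2 change was tested by limma over 16 libraries of an assay. It differed from 0 at an adjusted p under 0.05 in RNA for 26 named genes and in RPF for 5. Of all genes, 13.6% passed in RNA and 0.851% in RPF. Named genes other than the clock genes were chosen by their lights-on change in these same pools, which favours a difference. The counts are therefore a description. Higher at lights-on in RNA were Nr1d1 (2.94), Ahsg (1.90), Cdkn1a (2.62), Anp32b (2.00), Setd1b (1.93), Card10 (2.15), Tfap2a (2.24), St3gal2 (1.34), Hsd11b2 (1.35) and Pcgf2 (1.61). Lower at lights-on in RNA were mt-Nd2 (-0.82), Aspn (-1.62), mt-Atp6 (-0.98), Tmem207 (-1.34), mt-Atp8 (-1.20), mt-Nd3 (-1.24), Ltc4s (-1.57), Colec11 (-1.28), Ndufaf8 (-0.78), Mcrip2 (-0.86), Tma7 (-0.75), Pqbp1 (-0.69), Per2 (-1.97), Cry1 (-2.20), Cry2 (-0.70) and Hlf (-0.67). In RPF the differences were Anp32b (0.50), Tmem207 (-0.98), Tma7 (0.78), Per2 (-2.08) and Cry1 (-2.59). Tma7 had opposite signs in the assays, -0.75 in RNA and 0.78 in RPF.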

How the results depend on the processing

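No change called in a named gene was reversed under the alternatives run, although mt-Co1 and mt-Cytb, outside the named genes, turned positive under quantile normalisation. Of the named gene values recomputed, 2128 kept their side of the threshold, 139 lost a call and 22 gained one. These values include all RPF values and the uncalled RNA and TE values, which could not lose a call. A change of sign in an uncalled value was counted as kept. The 2128 is therefore not a measure of how stable the calls were. RNA calls numbered 250 for ZT22 against ZT00 alone, 232 at 1.5-fold or more, and 1323 to 2463 when each library was left out. RPF calls were 6 with 12 timepoint means over 24 libraries, 4 for ZT22 against ZT00 and 0 to 3 when each library was left out. TE calls were 358 with a pseudocount of 1, 421 at an RPKM minimum of 2, 382 over 24 libraries, 76 with 4 timepoint means, 12 for ZT22 against ZT00, 106 at 1.5-fold or more and 0 to 245 when each pool was left out. The lights-on minus lights-off difference was called in 752 RNA genes at 1.5-fold or more, in 2486 without ZT10 replicate 2 and in 159 RPF genes over 24 libraries. The share of rises among RNA calls was 48.3%, and 63.2% for ZT22 against ZT00 and 69.8% at 1.5-fold or more. The causes were not tested, beyond fewer samples or a stricter rule in those built so. Same-numbered replicates did not pair (correlation of deviations -0.122 to 0.0425 in RNA and -0.0842 to 0.0462 in RPF, 0 of 6 pairs above 0.1), and with a replicate block the calls were 1864 in RNA, 0 in RPF and 153 in TE, and 1660 and 88 for the lights-on minus lights-off difference. Low RPKM values rest on few reads.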

Other observations

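Some RNA calls went with footprints in the opposite direction, a set chosen after the values were seen. In 16 genes called in RNA, RPF groups did not overlap in the other direction with an unadjusted p under 0.05. Of the 1022 RNA risers 9 had lower RPF, and of the 1092 RNA fallers 7 had higher RPF. By the same rule 2.01% of all genes were lower and 1.97% higher in RPF, so such genes were not frequent among the RNA calls. In TE 10 of the 16 were called (1.87% of all genes), which a choice of opposite changes favours. Actg1, cytoplasmic gamma actin, was 504 to 536 RPKM in late night and 579 to 674 in early day RNA, and 1513 to 1934 and 1292 to 1467 in RPF. Its log2 changes were 0.32 ± 0.06 (adjusted p = 0.00337) and -0.31 ± 0.09 (adjusted p = 0.374). RNA and RPF log2 changes of the others called in TE were Arnt (0.27 and -0.18), Pard6g (0.64 and -0.76), Pex11a (0.46 and -0.28), Pi4k2a (0.51 and -0.19), Rbbp9 (0.32 and -0.16), Sergef (0.36 and -0.35), Slc25a28 (-0.25 and 0.33), Tfpi2 (-0.32 and 0.24) and Tma7 (-0.42 and 0.50). The 6 not called in TE were Faap20 (-0.50 and 0.19), Gga2 (0.23 and -0.14), Itgb3bp (-0.42 and 0.27), Oaz1 (-0.22 and 0.17), Sptssa (0.33 and -0.36) and Vps41 (-0.19 and 0.15).

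The 4 listed blood markers, led by Hba-a1, summed to 58.5 to 107 RPKM in late night and 62.4 to 286 in early day RNA, and to 28.5 to 57.0 and 34.6 to 188 in RPF, and the groups overlapped in both. All 4 had changes above 0 in both assays, with medians of 0.71 in RNA and 0.92 in RPF, and Hbb-bt rose in RNA (1.44). Hbb-b1, Hbb-b2 and Hbb-bs were not listed. Adipocyte markers (5 of 6 listed, Ucp1 not listed), led by Fabp4, summed to 118 to 140 RPKM in late night and 113 to 161 in early day RNA, and to 239 to 330 and 232 to 401 in RPF. Of the 4 tested, 3 were above 0 in RNA (median 0.59) and 4 in RPF (median 1.14), and Cfd rose in RNA (1.44). The part of these markers in the RNA changes was not tested. Leukocyte markers (6 of 8 listed, Cd3e and Cd79a not listed) were 374 to 518 and 308 to 375 in RNA, and 814 to 1041 and 749 to 993 in RPF. Of the 7 fibroblast and vascular smooth muscle markers, Col1a1 (0.69) and Col1a2 (0.36) rose in RNA and Dcn (-0.40) fell, beside 8.62% and 9.21% of all genes. Changes were above 0 in 6 of the 7 in RNA (median 0.36) and in 6 in RPF (median 0.37), where none was called. Their sums, led by Dcn, were 157 to 181 RPKM in late night and 172 to 221 in early day RNA, and 220 to 252 and 225 to 331 in RPF. The part of these markers was not tested either.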
